A study of Mus musculus with 14 samples.

Results

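The 7 genes described here encode receptors of the TNF receptor superfamily that regulatory T cells are known for: Tnfrsf4 (OX40), Tnfrsf9 (4-1BB), Tnfrsf18 (GITR), Tnfrsf1b (TNFR2), Tnfrsf25 (DR3), Tnfrsf1a (TNFR1) and Cd27. They were taken as a list of named genes and are 7 of the 30284 genes summed from the tables; all 7 passed the filter on low counts. RNA was sequenced from Foxp3+YFP+ regulatory T cells sorted from the spleen of C57/B6 mice. The control mice carried the alleles Tln1wt/wtFoxp3cre/wt and the knockout mice Tln1fl/flFoxp3cre/wt, so all mice carried 1 copy of a Foxp3-driven Cre. Talin-1, the product of Tln1, binds integrin tails and brings integrins into their active state, and the comparison addresses how its loss shows in the transcripts of these cells. The labels name no treatment, time point or age. Foxp3 lies on the X chromosome, so in a heterozygous female only a part of the Foxp3+ cells express the Cre allele, and the mice keep regulatory T cells without Cre. The 14 samples formed 4 control and 3 knockout-labelled units, with 13017008 to 39706502 estimated reads in the controls and 39314880 to 56772674 in the knockout-labelled units. Libraries came from 1 or 2 animals, and no source says which, so a p-value covers only the spread among units, which can be partly technical.

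Receptors of this family are bound by trimeric ligands of the TNF superfamily. Those without a death domain (OX40, 4-1BB, GITR, TNFR2 and CD27) bind TRAF adaptors and activate NF-kB, and they act as costimulators of T cells. TNFR1 and DR3 carry a death domain, which can recruit TRADD and, through it, either NF-kB signalling or caspase-8. In regulatory T cells OX40, GITR and TNFR2 support the differentiation, survival and expansion of the cells, and 4-1BB is known as a marker of recently stimulated ones.

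Of the 7 receptors, Tnfrsf4 and Tnfrsf9 fell in the knockout-labelled units, Tnfrsf1a rose, and Tnfrsf18, Tnfrsf1b, Tnfrsf25 and Cd27 did not pass the test (edgeR quasi-likelihood test, Benjamini-Hochberg adjusted p below 0.05). Among all 15775 genes tested, 6.52% fell and 7.07% rose. The units did not overlap for 3 receptors that were lower (Tnfrsf4, Tnfrsf9 and Tnfrsf1b) and 1 that was higher (Tnfrsf1a), against 14.1% and 16.7% of all genes. The median log2 fold change of the 7 receptors was -0.43, beside 0.06 for all genes tested. That median was -0.50 for 7 genes shared by T cells and -0.65 for 4 regulatory T cell genes. The receptors and these lists were chosen with earlier results of these data known, so the shares and medians are description only. Levels are given as CPM, summed reads relative to the TMM-normalized library size, which is not corrected for gene length. Errors are the SD over 4 control or 3 knockout-labelled units for a mean, and the SE for a log2 fold change. The receptors had between 381 reads (Tnfrsf1a in control unit 1) and 15574 reads (Cd27 in control unit 3) in a unit, and the 2 samples of a unit differed by at most 1.09-fold for any of them.

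Tln1 itself was at 668 CPM in the controls and 901 CPM in the knockout-labelled units and did not pass (log2 fold change 0.43 ± 0.18, edgeR adjusted p = 0.126), and with an offset for the effective transcript length its sign turned (-0.40). It checks the labels only weakly, because the sources do not say which exons are floxed, and every direction given rests on the labels. Foxp3, the factor that defines these cells, was at 419 ± 71.0 and 428 ± 76.1 CPM, while Il2ra (the IL-2 receptor alpha chain) and Ikzf2 (Helios) fell among 4 regulatory T cell genes. The sum of these 4 genes was 2395 to 3536 CPM in the controls and 1494 to 2289 CPM in the knockout-labelled units, without overlap. Of 7 genes shared by T cells, 1 (Cd3g) fell, and the sum of the list was 2444 to 3039 CPM in the controls and 2015 to 2578 CPM in the knockout-labelled units. Markers of other cells were higher: 7 of 12 B cell markers rose (summed level 43.2 to 116 CPM in the controls and 198 to 431 CPM in the knockout-labelled units), 6 of 13 myeloid markers (36.5 to 219 and 480 to 1959 CPM), 3 of 8 dendritic cell markers (29.4 to 40.9 and 78.9 to 104 CPM), 5 of 10 cytotoxic lymphocyte markers (38.8 to 49.3 and 63.8 to 122 CPM) and 1 of 9 erythroid and platelet markers (10.6 to 87.6 and 156 to 2808 CPM). No B cell marker was at 0 in a control unit, whereas Cd14 and S100a8 were at 0 in control units 2 and 3, Itgam and Fcgr1 in unit 2, and Elane in units 2 and 4. Of 12 early response genes 5 rose, from a summed 1108 to 3442 CPM to 5293 to 7699 CPM, and control units 1 and 4 were the higher controls. Without overlap, 11 of the 12 were higher and 1, Egr2, was lower (26.7 ± 4.09 and 19.1 ± 0.653 CPM, edgeR adjusted p = 0.0812). Of all genes, 16.7% and 14.1% did so. The part of these other transcripts in the receptor results was not tested beyond the values given with them, and in sorted bulk RNA fewer cells of a type and less RNA per cell cannot be told apart.

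**Figure D1:**
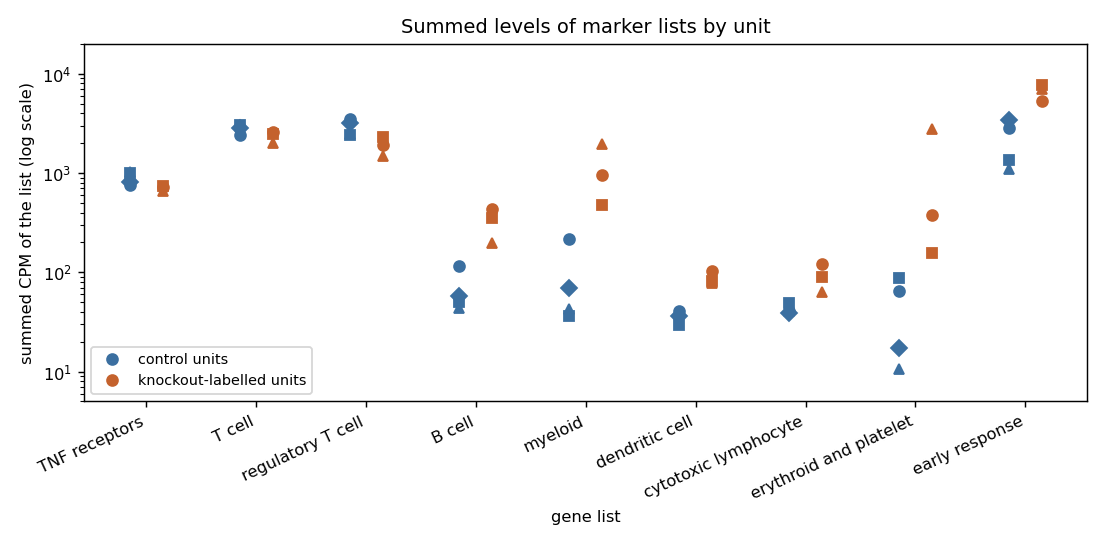
Summed CPM (log scale) of the 7 TNF receptors and of 8 marker lists in each unit; symbols are units 1 to 4 of the controls (blue: circle, square, triangle, diamond) and 1 to 3 of the knockout-labelled group (orange). The receptors sum to 756 to 1018 CPM in the controls and 667 to 739 CPM in the knockout-labelled units, without overlap. The B cell, myeloid, dendritic cell, cytotoxic lymphocyte, erythroid and platelet, and early response sums do not overlap either and are higher in the knockout-labelled units. The regulatory T cell sum also does not overlap and is lower. It is 2395 to 3536 CPM in the controls and 1494 to 2289 CPM in the knockout-labelled units.

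Tnfrsf9, the receptor 4-1BB (ENSMUSG00000028965; GRCm38 chromosome 4, 150914562 to 150946102, plus strand), is shown with its promoters because its annotated transcripts begin at several starts. RefSeq promoter windows (GRCm38.p6, plus strand, the 250 bases before the start) are printed for its upstream and downstream start, and for comparison that of Tnfrsf4, which fell too, and that of Tnfrsf1a, which rose. The RefSeq start of Tnfrsf4 lies upstream of the GENCODE start of the gene given with its values. Capitals mark a match to the NF-kB consensus or to the AP-1 motif TGANTCA; all 7 receptors matched a RefSeq entry, with 9 windows in all.
Tnfrsf9 upstream start, chr4:150919905-150920154: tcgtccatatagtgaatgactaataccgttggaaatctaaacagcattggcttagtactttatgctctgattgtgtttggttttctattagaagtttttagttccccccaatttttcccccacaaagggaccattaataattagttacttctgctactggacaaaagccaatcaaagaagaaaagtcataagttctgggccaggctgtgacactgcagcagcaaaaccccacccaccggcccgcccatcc
Tnfrsf9 downstream start, chr4:150927749-150927998: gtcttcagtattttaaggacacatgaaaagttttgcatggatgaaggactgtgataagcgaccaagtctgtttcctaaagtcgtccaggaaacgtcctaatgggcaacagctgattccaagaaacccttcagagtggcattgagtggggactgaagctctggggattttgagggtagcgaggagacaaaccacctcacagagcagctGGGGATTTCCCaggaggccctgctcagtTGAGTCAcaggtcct
Tnfrsf4, chr4:156013445-156013694: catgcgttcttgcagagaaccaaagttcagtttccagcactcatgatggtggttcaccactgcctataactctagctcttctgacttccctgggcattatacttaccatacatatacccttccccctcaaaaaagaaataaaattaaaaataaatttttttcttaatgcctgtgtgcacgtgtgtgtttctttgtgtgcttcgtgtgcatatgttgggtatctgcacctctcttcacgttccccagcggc
Tnfrsf1a, chr6:125349473-125349722: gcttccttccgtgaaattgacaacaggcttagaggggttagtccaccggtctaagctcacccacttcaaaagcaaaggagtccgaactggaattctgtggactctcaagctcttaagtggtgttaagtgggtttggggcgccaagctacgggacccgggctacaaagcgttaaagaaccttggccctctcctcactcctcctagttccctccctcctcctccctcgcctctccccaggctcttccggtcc
Both strands were searched for the NF-kB consensus, AP-1 (TGANTCA) and the forkhead motif GTAAACA. The downstream Tnfrsf9 window held an NF-kB stretch, matched at 2 overlapping positions 43 and 42 bases before the start, and an AP-1 match 15 bases before it, which does not overlap the first. The downstream of the 2 Tnfrsf25 windows held an NF-kB match 28 bases before its start, and the other 7 windows held none of the 3 motifs. Among 32851 mouse promoter windows of this length, 7.25% hold the NF-kB consensus, 6.75% the AP-1 motif and 3.17% the forkhead motif. A match describes these letters only and is not a measured binding site.

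Tnfrsf9 was at 69.4, 81.8, 70.4 and 72.5 CPM in control units 1 to 4, and the 3 knockout-labelled units were at 52.1, 40.1 and 34.4 CPM in order of their numbers. Every knockout-labelled unit was below every control, and the controls lay closer together than the knockout-labelled units. The mean went from 73.5 ± 5.68 to 42.2 ± 9.07 CPM, a fall of 1.74-fold with a log2 fold change of -0.80 ± 0.16 (95% interval -1.15 to -0.45; edgeR adjusted p = 0.0122). The call held without any 1 unit, with log2 fold changes from -0.99 to -0.67. It did not hold with an offset for the effective transcript length (-0.52, adjusted p = 0.0527), with T cell genes set equal (-0.51, adjusted p = 0.0556) or with B cell and myeloid marker level as a covariate (-0.67, adjusted p = 0.438).

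The annotated transcripts of Tnfrsf9 divide by start. Those beginning within 100 bases of the upstream start summed to 6.86, 19.7, 23.6 and 10.01 TPM (the authors' values, scaled by transcript length) in the controls and 14.5, 14.2 and 4.14 TPM in the knockout-labelled units. These ranges overlap, and the controls differ among themselves by more than the groups do. Those of the downstream start, printed above with the NF-kB and AP-1 matches, summed to 22.3, 12.5, 7.38 and 20.2 TPM in the controls and 4.43, 0.0007 and 5.96 TPM in the knockout-labelled units. Here every knockout-labelled unit was below every control (15.6 ± 6.92 and 3.46 ± 3.09 TPM). The other 4 transcripts start elsewhere in the gene. ENSMUST00000060901 and ENSMUST00000126707 start further downstream, ENSMUST00000105671 between the upstream and the downstream start, and ENSMUST00000135169 before both. These 4 summed to 6.91, 7.001, 14.2 and 3.64 TPM in the controls and 9.72, 14.6 and 11.9 TPM in the knockout-labelled units. Their level was thus higher on average in the knockout-labelled units (7.93 ± 4.45 and 12.1 ± 2.45 TPM), with control unit 3 among those units, and they held 10.7% to 31.4% of the gene's TPM in the controls and 33.9% to 54.2% in the knockout-labelled units. This grouping was made after the values were seen, so it has no test. The dominant transcript of the downstream start, ENSMUST00000116257, has no 31-base stretch of its own within the gene. The same holds for ENSMUST00000030808 of the upstream start and for ENSMUST00000126707 of the other starts. Of the stretches of ENSMUST00000060901, also of the other starts, 1.7% are its own. How reads divided between these transcripts rests on kallisto's model. As sets, the upstream start has 105 stretches found in no other transcript of the gene, and the downstream start has 193. Those 193 include stretches of ENSMUST00000139826 and ENSMUST00000146133, each at 0.875 TPM or less in every unit. Reads without a stretch particular to a set were divided between the 3 sets of starts by that model. The transcript test for ENSMUST00000116257 gave -2.20 ± 0.68 in log2(TPM + 1) and did not pass (limma adjusted p = 0.125).

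**Figure D2:**
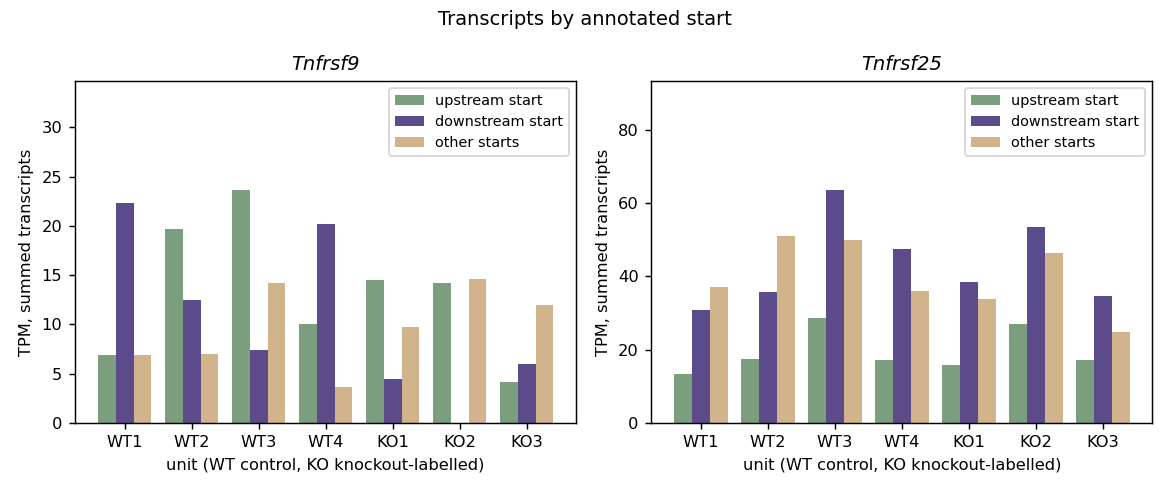
Summed TPM of the transcripts at the upstream, downstream and other annotated starts of Tnfrsf9 (left) and Tnfrsf25 (right) in each of the 7 units; each bar is 1 unit. The downstream start of Tnfrsf9 is at 7.38 TPM or more in the controls and at 5.96 TPM or less in the knockout-labelled units, while the other starts of Tnfrsf9 and each set of Tnfrsf25 overlap between the groups.

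Tnfrsf4, the receptor OX40 (ENSMUSG00000029075; chromosome 4, 156013843 to 156016612, plus strand), was at 89.2, 119, 109.8 and 103 CPM in the controls and at 66.0, 70.7 and 65.4 CPM in the knockout-labelled units. The knockout-labelled units lay within a narrow band below all controls. The mean fell 1.56-fold, from 105 ± 12.5 to 67.4 ± 2.90 CPM (log2 fold change -0.64 ± 0.13, 95% interval -0.93 to -0.35, edgeR adjusted p = 0.0140). Its coding transcript, ENSMUST00000030952, was at 46.8, 84.3, 85.7 and 48.5 TPM in the controls and at 36.3, 36.7 and 38.9 TPM in the knockout-labelled units, also without overlap. The call held without any 1 unit (-0.72 to -0.58) and was lost with T cell genes set equal (-0.32, adjusted p = 0.170) and with B cell and myeloid marker level as a covariate (-0.09, adjusted p = 0.896).

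Tnfrsf18, the receptor GITR (ENSMUSG00000041954; chromosome 4, 156026164 to 156028895, plus strand), lies 9.6 kb downstream of Tnfrsf4. It was at 75.7, 130.1, 124 and 93.6 CPM in the controls and at 78.2, 74.3 and 70.6 CPM in the knockout-labelled units. Control unit 1 lay among the knockout-labelled units and the other 3 controls lay above them. The log2 fold change of -0.51 ± 0.18 (106 ± 25.6 and 74.4 ± 3.82 CPM) did not pass (edgeR adjusted p = 0.0882). Without control unit 1 it was -0.64 and passed (adjusted p = 0.0301). The coding transcript ENSMUST00000103173 was at 26.7, 45.5, 49.9 and 28.1 TPM in the controls and 23.7, 14.5 and 21.6 TPM in the knockout-labelled units, without overlap, but did not pass either (limma adjusted p = 0.152). The other 5 tested transcripts of the gene overlapped between the groups.

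Tnfrsf1b, the receptor TNFR2 (ENSMUSG00000028599; chromosome 4, 145213463 to 145246870, minus strand), binds TNF and lymphotoxin alpha. It was at 152, 175, 183 and 139.5 CPM in the controls and at 118, 114 and 129 CPM in the knockout-labelled units. The groups did not overlap, with control unit 4 and knockout-labelled unit 3 the nearest pair. The log2 fold change was -0.43 ± 0.13 (162 ± 20.2 and 120.3 ± 7.71 CPM; 95% interval -0.73 to -0.14), and the adjusted p of 0.0558 missed the threshold in edgeR. It passed under 5 of 23 other settings, among them DESeq2 (adjusted p = 0.0164). Nearly all its TPM came from 1 coding transcript, ENSMUST00000030336, with 38.6 ± 6.88 and 27.3 ± 1.19 TPM.

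Cd27 (ENSMUSG00000030336; chromosome 6, 125232622 to 125237010, minus strand) encodes the receptor for CD70. It was at 268, 360, 389 and 289 CPM in the controls and at 282, 289 and 246 CPM in the knockout-labelled units. Control units 1 and 4 lay within the knockout-labelled range, and the log2 fold change of -0.26 ± 0.16 did not pass (95% interval -0.62 to 0.09; edgeR adjusted p = 0.286). Its longest coding transcript, ENSMUST00000032486, was at 119.7, 154, 190.3 and 126 TPM in the controls and at 123.5, 125 and 103 TPM in the knockout-labelled units, also with overlap. A retained-intron transcript, ENSMUST00000135205, had the lowest unadjusted p of the gene (0.0439; limma adjusted p = 0.231), at 77.0 ± 15.3 and 53.0 ± 14.5 TPM.

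Of the death domain receptors, Tnfrsf25 (DR3; ENSMUSG00000024793; chromosome 4, 152115934 to 152120119, plus strand) was at 71.7, 105, 107 and 88.9 CPM in the controls and at 79.5, 107 and 76.7 CPM in the knockout-labelled units. The range of the knockout-labelled units lay within that of the controls. Its log2 fold change was -0.09 ± 0.17 (95% interval -0.48 to 0.30; edgeR adjusted p = 0.759). The sum at its upstream start was 13.4 to 28.6 TPM in the controls and 15.9 to 27.0 TPM in the knockout-labelled units, and that at its downstream start, where the NF-kB match lies, 30.8 to 63.5 and 34.7 to 53.6 TPM.

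Tnfrsf1a, the receptor TNFR1 (ENSMUSG00000030341; chromosome 6, 125349362 to 125362484, plus strand), was the 1 receptor of the 7 that rose. It was at 30.0, 34.6, 34.8 and 31.01 CPM in the controls and at 43.9, 43.8 and 45.3 CPM in the knockout-labelled units. All 3 knockout-labelled units were above all controls and nearly equal. The mean rose 1.36-fold, from 32.6 ± 2.48 to 44.3 ± 0.867 CPM (log2 fold change 0.44 ± 0.12, 95% interval 0.17 to 0.72, edgeR adjusted p = 0.0423). The call was lost when any 1 of the 7 units was left out (adjusted p from 0.0516 to 0.117), and with an offset for GC content and length the value was 0.08 (adjusted p = 0.717). Myeloid cells express this receptor widely, and the myeloid marker sum given above was higher in the same units; its part was not tested.

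In TPM Tnfrsf1a looked more different than in reads. The gene sum was 45.7, 27.4, 70.3 and 49.3 TPM in the controls and 80.3, 99.9 and 82.0 TPM in the knockout-labelled units. Much of it came from a processed transcript of 250 bases, ENSMUST00000131434, with 22.3, 6.87, 46.1 and 31.03 TPM in the controls and 55.1, 67.0 and 53.9 TPM in the knockout-labelled units. That transcript held only 8.98 to 100.4 estimated reads in a control unit, against 265 to 1052 for the longest coding transcript. The longest coding transcript, ENSMUST00000032491, was at 9.13, 11.5, 12.7 and 10.02 TPM in the controls and 13.4, 13.4 and 13.03 TPM in the knockout-labelled units (log2(TPM + 1) difference 0.28 ± 0.19, limma adjusted p = 0.436).

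**Figure D3:**
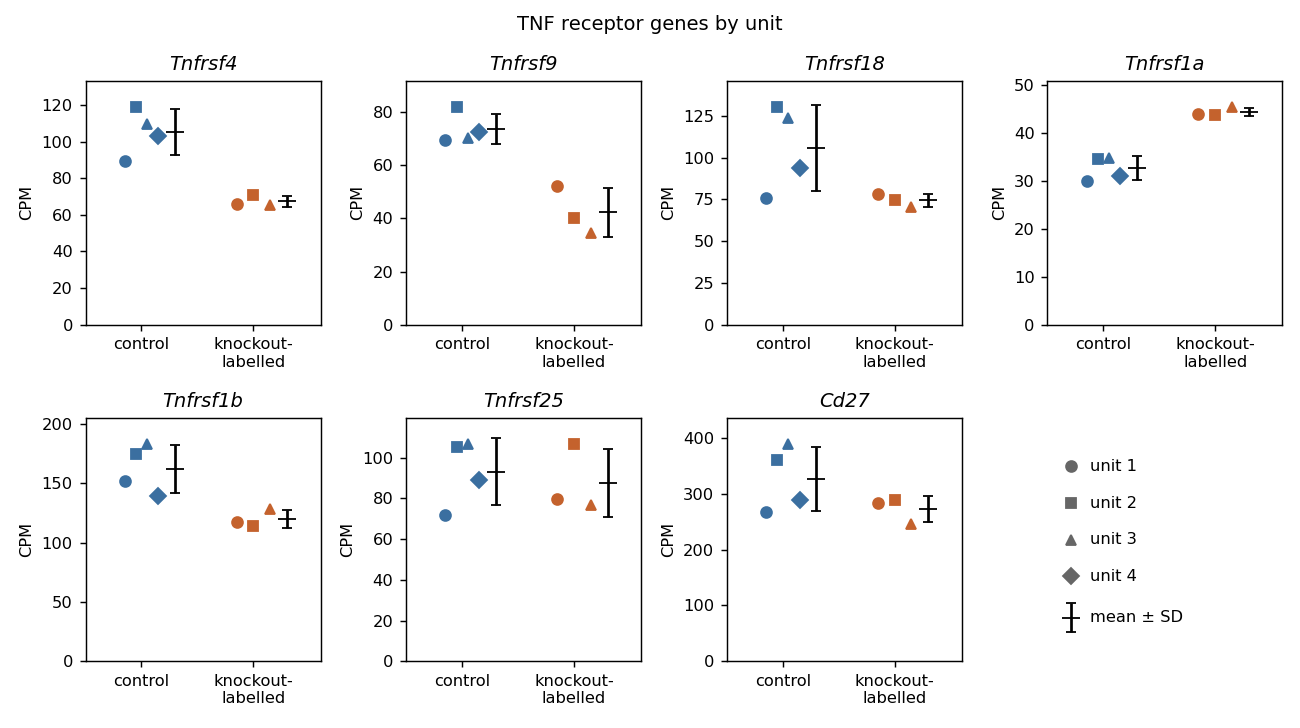
CPM of the 7 receptors in each unit, with control units in blue, knockout-labelled units in orange, 1 symbol per unit number, and black bars for the mean ± SD. Tnfrsf4, Tnfrsf9 and Tnfrsf1b are lower and Tnfrsf1a is higher in every knockout-labelled unit than in any control.

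Per length, the order in the controls by gene TPM was Cd27 (334 ± 74.5 TPM), Tnfrsf18 (151 ± 44.3), Tnfrsf4 (134 ± 12.3), Tnfrsf25 (107 ± 25.3), Tnfrsf1a (48.2 ± 17.6), Tnfrsf1b (38.6 ± 6.88) and Tnfrsf9 (38.6 ± 4.91). Cd27 was above the others and Tnfrsf25 above Tnfrsf1a in every control unit. The neighbours Tnfrsf18 and Tnfrsf4, Tnfrsf4 and Tnfrsf25, and Tnfrsf1a, Tnfrsf1b and Tnfrsf9 overlapped in their ranges. Counting coding transcripts alone, Cd27 stayed the highest (180 ± 39.7 TPM) and Tnfrsf1a became the lowest (11.5 ± 1.43 TPM), since its coding transcripts held 18.3% to 44.6% of the gene's TPM there. In the knockout-labelled units the gene TPM order had Tnfrsf1a (87.4 ± 10.9 TPM) level with Tnfrsf4 (86.9 ± 16.7 TPM), and in coding TPM Tnfrsf1a was still the lowest (17.2 ± 1.29 TPM).

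Of the 36 annotated transcripts of the 7 genes, 30 had a mean of at least 1 TPM and were tested with limma on log2(TPM + 1). None passed adjustment over 33274 transcripts, of which 2.31% passed (0.962% lower and 1.35% higher). At an unadjusted p below 0.05 there were 8, of which 6 were lower and 2 higher in the knockout-labelled units, and the lowest adjusted p was 0.125. The share of all transcripts below that unadjusted p was not counted, so these 8 cannot be read as many or few.

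The receptors were also set against the mean level of 7 T cell genes in each unit, as the log2 difference from it. The log2 fold changes of these 7 genes themselves ran from -0.61 (Cd3g) to 0.14 (Cd247), so their mean is not a measure of T cell content. Tnfrsf9 was at -2.25, -2.37, -2.54 and -2.41 in the controls and at -2.74, -3.03 and -2.93 in the knockout-labelled units. Tnfrsf4 was at -1.89, -1.83, -1.90 and -1.90 in the controls and at -2.40, -2.21 and -2.00 in the knockout-labelled units. Both were thus still lower in every knockout-labelled unit than in any control. Tnfrsf1a was at -3.63 to -3.46 in the controls and at -2.99 to -2.53 in the knockout-labelled units, again without overlap. Tnfrsf1b ran from -1.47 to -1.12 and from -1.57 to -1.02 and overlapped. With the counts scaled in this way, all genes shifted by a median of 0.31 on the log2 scale, and both calls were lost, with Tnfrsf4 at -0.32 (edgeR adjusted p = 0.170) and Tnfrsf9 at -0.51 (0.0556). The fold changes of Tnfrsf25 and Cd27 turned to 0.24 and 0.060.

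The level of the B cell and myeloid markers was also added to the model as a covariate. Then no receptor passed: Tnfrsf4 was at -0.09 ± 0.27 (edgeR adjusted p = 0.896), Tnfrsf9 at -0.67 ± 0.39 (0.438) and Tnfrsf1a at 0.75 ± 0.31 (0.325). Among all genes 25 passed in that model. The marker sums did not overlap between the groups, so marker level and genotype label could hardly be told apart in 7 units.

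The control units had an order that several receptors shared. Control unit 1 was the lowest of the 4 for Tnfrsf4, Tnfrsf18, Tnfrsf25 and Cd27, with unit 4 next, and units 2 and 3 were the highest. Tnfrsf1a had its 2 lowest controls in the same units. Control units 1 and 4 had the higher early response sums (2815 and 3442 CPM, against 1341 and 1108 CPM in units 2 and 3). They also had the fewest estimated reads of the controls (13017008 and 13627264, against 21114813 and 39706502 in units 2 and 3). Early response level and depth thus split the controls in the same way and cannot be told apart here. The part of either in this order of the receptor values was not tested. With control units 2 and 3 alone, an alternative chosen after seeing the data, the log2 fold changes were -0.81 for Tnfrsf4 (adjusted p = 0.0170), -0.90 for Tnfrsf9 (0.0413) and -0.82 for Tnfrsf18 (0.0187), and that of Tnfrsf1a was 0.30 (0.259).

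**Figure D4:**
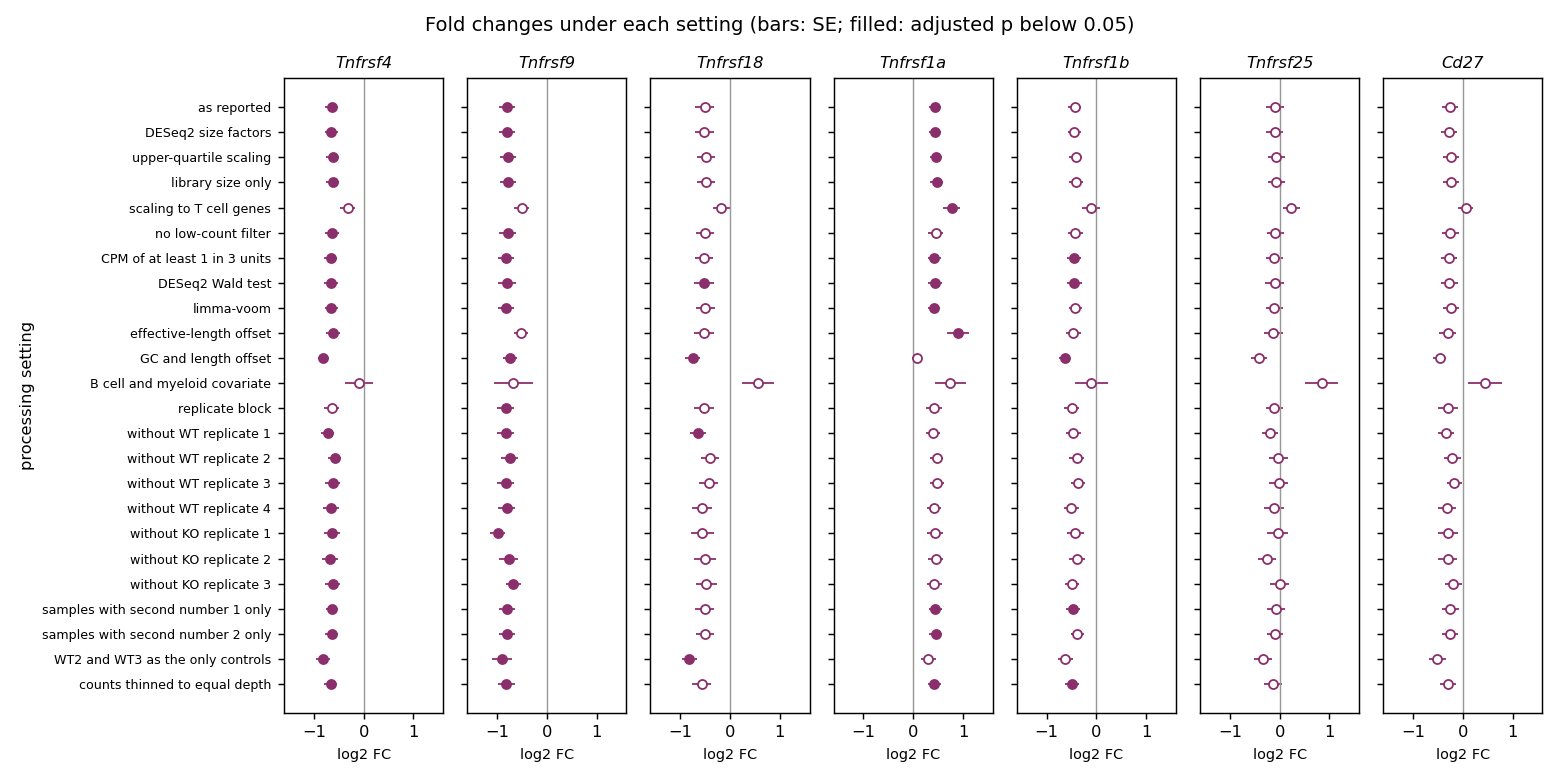
Log2 fold change of each receptor, knockout-labelled minus control, under the reported setting and 23 alternatives; bars are the SE and filled points have an adjusted p below 0.05. Tnfrsf4 and Tnfrsf9 each passed in 20 of the 23 alternatives, and Tnfrsf1a in 11.

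Of 21 other receptors of the superfamily, 18 were tested, of which 1 fell and 2 rose, with a median log2 fold change of 0.39; in either direction 13.6% of all genes passed. Tnfrsf8 (CD30), a receptor of activated lymphocytes, fell from 5.03, 5.91, 5.49 and 5.71 CPM in the controls to 1.44, 1.10 and 1.63 CPM in the knockout-labelled units. In edgeR this was a log2 fold change of -1.99 ± 0.32 with an adjusted p of 0.00562. Tnfrsf13c, the BAFF receptor, which B cells carry, rose from 2.86 ± 1.03 to 10.3 ± 4.16 CPM (1.87 ± 0.37, edgeR adjusted p = 0.0131), in the units with the higher B cell markers. Ltbr, the lymphotoxin beta receptor, which stromal and myeloid cells express, had 13, 0, 2 and 2 reads in the controls and 157, 122 and 452 in the knockout-labelled units. Its pooled ratio of 26.6 has a counting interval of 16.5 to 46.0 (edgeR adjusted p = 0.0495). It was 96.4 without control unit 1, which held most of the control reads, 16.5 without control unit 3 and 17.0 without knockout-labelled unit 3. Tnfrsf19 had the next lowest adjusted p (0.0566) with 4, 1, 0 and 1 reads in the controls and 164, 4 and 161 in the knockout-labelled units, so knockout-labelled unit 2 stood with the controls. The B cell and myeloid sums were higher in all 3 knockout-labelled units than in any control, as were Tnfrsf13c and Ltbr but not Tnfrsf19, and their part was not tested.

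Among the 7 ligands of these receptors 6 were tested and Cd70, the ligand of CD27, was not; 1 fell and 1 rose, and the median log2 fold change was -0.27. Lta (lymphotoxin alpha, a ligand of both TNF receptors) fell from 45.1, 62.8, 58.1 and 52.6 CPM to 35.2, 38.2 and 30.7 CPM (-0.66 ± 0.15, edgeR adjusted p = 0.0216). Tnf was at 23.0, 27.5, 24.0 and 19.0 CPM in the controls and 13.3, 16.7 and 16.7 CPM in the knockout-labelled units, without overlap, and missed the threshold (edgeR adjusted p = 0.0625). Tnfsf18, the GITR ligand, had 2, 0, 0 and 0 reads in the controls and 60, 14 and 21 in the knockout-labelled units, a pooled ratio of 29.4 with a counting interval of 7.93 to 247 (edgeR adjusted p = 0.0392). The ratio was 15.9 without knockout-labelled unit 1 and 16.1 without control unit 3. Without control unit 1 no control read was left, and the level was at least 16.7-fold higher against a floor of 3 reads over the group. Antigen-presenting cells are its known source, and the dendritic cell and myeloid sums were higher in the same units; their part was not tested. Tnfsf15, the ligand of DR3, was at 1.56 and 0.742 CPM on average (edgeR adjusted p = 0.321).

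Of 11 other ligands 3 fell and 0 rose in edgeR, with a median log2 fold change of 0.25; 2 of the 8 that were not called had an unadjusted p below 0.05, both higher (Eda and Tnfsf13), and DESeq2 and limma-voom called 0 higher too. Tnfsf11 (RANKL) fell from 38.7, 38.2, 30.9 and 54.9 CPM to 12.7, 11.5 and 11.3 CPM (-1.78 ± 0.21, adjusted p = 0.00121). Tnfsf8 (CD30 ligand) fell from 136 ± 17.7 to 68.6 ± 9.69 CPM (-0.98 ± 0.15, adjusted p = 0.00488) and Tnfsf10 (TRAIL) from 74.8 ± 8.31 to 38.1 ± 5.44 CPM (-0.97 ± 0.15, adjusted p = 0.00434). The group values did not overlap for any of the 3. CD30 and its ligand thus both fell.

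**Figure D5:**
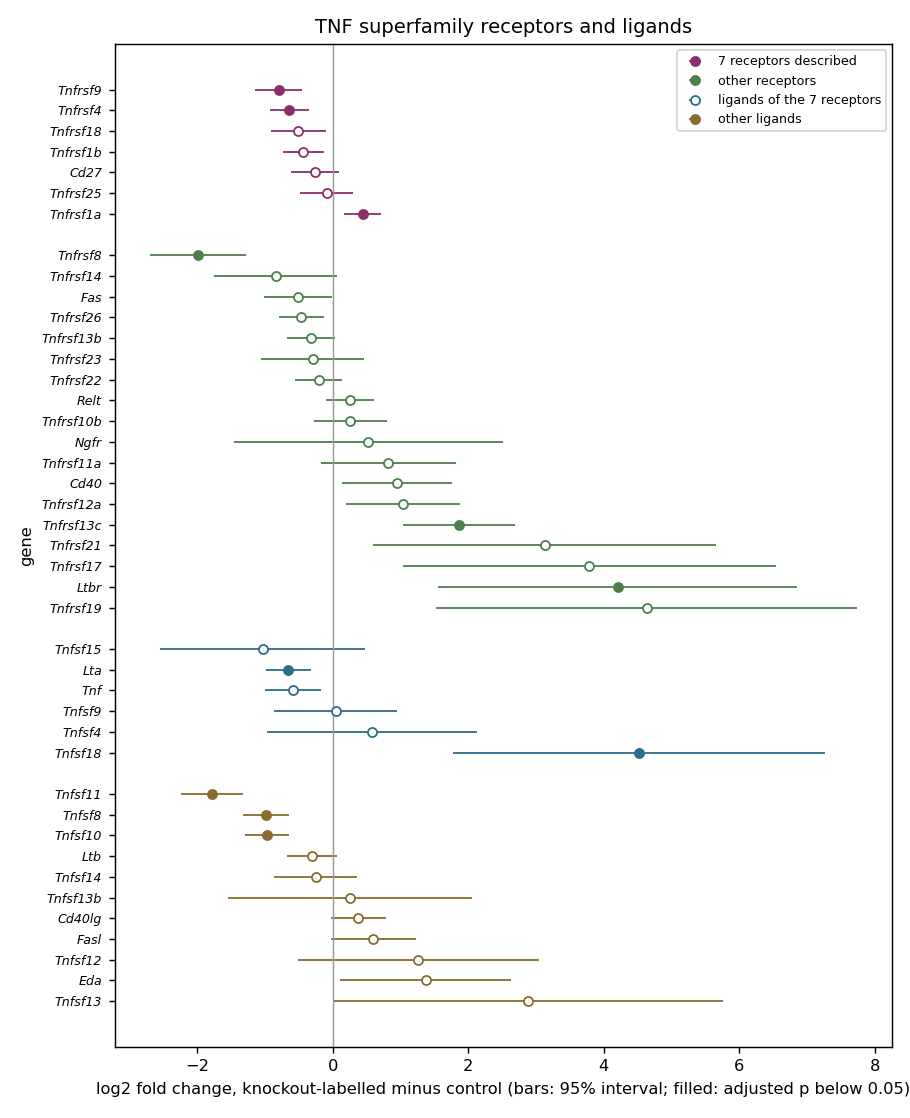
Log2 fold change of the knockout-labelled against the control units with 95% intervals for the 7 receptors, 18 other receptors, 6 ligands of the 7 receptors and 11 other ligands; filled points passed the edgeR test. Tnfrsf8 and Tnfsf11 lie furthest to the left (-1.99 and -1.78), and the points furthest to the right are of genes with few reads in the controls and have wide intervals.

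Of 18 receptor adaptors 2 fell and 1 rose, with a median log2 fold change of -0.07. Tank, a TRAF-binding regulator of NF-kB, fell from 231, 223, 180.0 and 227 CPM to 152, 127 and 95.5 CPM (-0.78 ± 0.17, edgeR adjusted p = 0.0189). Casp8, the caspase that death domain receptors can activate, fell from 286 ± 24.9 to 195 ± 31.8 CPM (-0.55 ± 0.15, edgeR adjusted p = 0.0369). Traf4, a member of the TRAF family, rose from 24.1, 27.2, 25.7 and 29.0 CPM to 38.6, 43.8 and 50.3 CPM (0.74 ± 0.14, edgeR adjusted p = 0.0114). The TRAFs that OX40, 4-1BB and TNFR2 bind did not pass: Traf1 was at -0.26 (adjusted p = 0.202), Traf2 at 0.12 (0.524) and Traf5 at -0.05 (0.880). Siva1, an adaptor that binds CD27, was at 3.65 and 7.50 CPM on average (edgeR adjusted p = 0.110). It had 39, 82, 176 and 41 reads in the controls and 228, 168 and 743 in the knockout-labelled units, most of the latter in unit 3.

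Of 22 kinases, subunits and inhibitors of NF-kB 1 fell and 3 rose, with a median log2 fold change of 0.07. Map3k14 (NIK, the kinase of the noncanonical pathway that OX40 and 4-1BB can engage) rose from 50.5, 55.9, 66.5 and 59.4 CPM to 84.3, 100.2 and 84.7 CPM (0.63 ± 0.13, edgeR adjusted p = 0.0169). Nfkbia (I-kappa-B alpha) rose from 216 ± 37.6 to 311 ± 16.1 CPM (0.53 ± 0.15, edgeR adjusted p = 0.0451) and Nfkbid from 59.9 ± 10.5 to 108 ± 36.5 CPM (0.85 ± 0.22, edgeR adjusted p = 0.0345). Both are genes that NF-kB itself can induce. Cyld, a deubiquitinase that restrains NF-kB, fell from 351 ± 27.0 to 233 ± 39.8 CPM (-0.59 ± 0.15, edgeR adjusted p = 0.0315). Tnfaip3, another inhibitor in this list, went the other way and did not pass. It had 12758, 3261, 5340 and 14910 reads in the controls and 77043, 88034 and 77647 in the knockout-labelled units. Its pooled ratio, relative to total reads, was 4.15. None of the 5 subunit genes passed: Nfkb1, Rel and Relb were at 0.01, -0.03 and 0.07, Nfkb2 at 0.25 (edgeR adjusted p = 0.195) and Rela at 0.43 (edgeR adjusted p = 0.0753). Rela was at 91.0 to 120 CPM in the controls and 123 to 159 CPM in the knockout-labelled units, without overlap. The early response sum given above was higher in the same units as Nfkbia and Nfkbid, and its part was not tested. Over the 5 lists, 15 genes passed, and between 7 and 13 passed when 1 unit was left out. Among all genes tested 13.6% passed, and fewer of them passed in each of those fits too.

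Of these 15 genes, 6 passed in all 7 fits that left out 1 unit: Tnfrsf8, Tnfrsf13c, Tnfsf8, Tnfsf10, Tnfsf11 and Traf4. The other 9 each lost the call without at least 1 unit. Tank and Map3k14 lost it without control unit 4 or knockout-labelled unit 2, and Lta without control unit 2 or 4 or knockout-labelled unit 3. Casp8, Ltbr and Tnfsf18 kept it only without control unit 1, and Nfkbia only without control unit 4. Cyld kept it without control unit 3 or knockout-labelled unit 1, and Nfkbid without knockout-labelled unit 1 or 3. With the B cell and myeloid markers as a covariate all 15 lost it, with edgeR adjusted p from 0.143 (Tnfsf10) to 0.989 (Lta), and the sign turned for Ltbr, Lta and Tnfsf18.

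Within 50 kb of the 7 receptors, 19 other genes were tested and 3 of them passed, a share near the 13.6% of all genes. Tnfrsf8 lies beside Tnfrsf1b and fell, while Ltbr and Scnn1a, an epithelial sodium channel subunit (0.621 ± 0.227 and 1.96 ± 0.585 CPM, edgeR adjusted p = 0.0461), lie beside Tnfrsf1a and rose. Scnn1a lost the call in each of the 7 fits that left out 1 unit. Beside Tnfrsf4, C1qtnf12 was at 4.88, 4.79, 4.07 and 3.05 CPM in the controls and 9.30, 8.80 and 57.3 CPM in the knockout-labelled units, without overlap, and did not pass (2.58 ± 0.72, edgeR adjusted p = 0.0620). Next to Tnfrsf4 and Tnfrsf18, Sdf4 was at 266 ± 30.2 and 241 ± 13.5 CPM (-0.14 ± 0.13, edgeR adjusted p = 0.496) and B3galt6 at -0.23 ± 0.28 (edgeR adjusted p = 0.610). Tnfrsf9 overlaps Camta1 and Cd27 overlaps Vamp1, each on the other strand, and the library kit does not keep the strand. Camta1 was at 15.6 ± 3.16 and 12.9 ± 3.02 CPM and Vamp1 at 154 ± 6.93 and 135 ± 37.2 CPM, and neither passed (edgeR adjusted p = 0.468 and 0.496). Of the 31-base stretches of the 7 genes at most 0.42% occur in another gene.

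For each receptor the 2 genes with the most similar pattern over the 7 units (1 for Tnfrsf1b) were taken from 8645 genes, by the Pearson correlation of log2 CPM; a second value, with each group centred on its mean, is given as description. For Tnfrsf9 they were Zfp397 (0.998, centred 0.996) and Ndfip1 (0.997, centred 0.982), and for Tnfrsf4 Rbm45 (0.991, 0.967) and Ifit1bl1 (0.988, 0.910). For Tnfrsf18 they were Tmem173 (0.987, 0.975) and Ltb (0.977, 0.984), and for Tnfrsf1b Ptpn9 (0.992, 0.974) is given. For Tnfrsf1a they were Nrros (0.998, 0.979) and Gsn (0.994, 0.960). For Tnfrsf25 they were Lat (0.969, 0.972) and Sept1 (0.969, 0.968), and for Cd27 Nit1 (0.994, 0.993) and Lrrc61 (0.993, 0.989). None of these genes is another of the 7 receptors. All genes of a unit share its library and depth, so these values describe likeness over 7 points only.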

How the data were processed

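RNA of 14 samples was quantified with kallisto against GRCm38 transcripts, per the submitters' processing notes. The tables hold expected counts (estimated reads per transcript), deposited by the authors without normalization, and TPM deposited by the authors, per the file headers; the other columns, length and effective length, were deposited too. The library kit was not stranded, per the labels' protocols.

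Transcripts were summed to genes with the GENCODE annotation of GRCm38; 2079 of 88198 transcripts found no gene and held 1.17% to 1.28% of reads. The 2 samples of a unit (titles with the same first number) differed little (chi-square per degree of freedom 1.44 to 1.90, against 7.37 to 108 between units) and were summed and rounded. Genes were tested with edgeR 4.0.16 in R 4.3.3 (TMM, filterByExpr, robust quasi-likelihood fit, group as the only term) with Benjamini-Hochberg adjustment over all genes at 0.05. Unit mean TPM of transcripts was tested with limma 3.58.1 on log2(TPM + 1) at a mean of at least 1 TPM. DESeq2 1.42.0, other scalings, filters and offsets, a marker covariate, a replicate block and left-out units were alternatives; 2 (control units 2 and 3 alone, and counts thinned to equal depth) were added after seeing the data. Promoter windows came from RefSeq. On simulated counts of 15419 genes for this comparison, 33% of the 2-fold changes and 64% of the 4-fold changes were called, and 8.49% of 106 calls were on unchanged genes.

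Named genes were the 7 receptors, up to 4 genes of each pathway list by adjusted p, tested genes within 50 kb, and the 2 genes of most similar pattern per receptor (at least 10 CPM), of which 1 is not reported here. Further adaptor, ligand, subunit and inhibitor genes were named after their values were seen. The members and lists were chosen with earlier results of these data known.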

Additional observations from a re-analysis of the deposited data

How the results depend on the processing

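Of the 7 receptors, Tnfrsf4 and Tnfrsf9 each passed in all 7 fits that left out 1 unit and in 13 of 16 other alternatives, and kept their direction in every one. With 1 unit left out, 2 to 3 receptors were lower and 0 higher (from 2 and 1), 758 to 1905 genes passed in all (from 2144; 758 without control unit 4, 977 without knockout-labelled unit 3, 1122 without control unit 2 and 1131 without knockout-labelled unit 2), 7 to 13 pathway genes passed (from 15) and 0 receptor transcripts passed in each. Receptors called lower numbered 0 with T cell genes set equal and with the B cell and myeloid covariate, 1 with the effective-length offset, and 4 with DESeq2 and with the GC and length offset. Tnfrsf1a, the 1 receptor called higher, gave 0 calls without a low-count filter, with the GC and length offset, with the covariate and with control units 2 and 3 alone. Genes called in all numbered 3546 with DESeq2, 1160 with the GC and length offset, 25 with the covariate and 1118 with control units 2 and 3 alone; pathway genes numbered 0 with the covariate. The sign turned with T cell genes set equal for Tnfrsf25 (0.24) and Cd27 (0.060), and with the covariate for Tnfrsf18 (0.57), Tnfrsf25 (0.84) and Cd27 (0.44), and among other genes named for Ltbr (-1.79), Tnfrsf19 (-2.74), Lta (0.012) and Tnfsf18 (-3.35); with the effective-length offset it turned for Tln1 (-0.40). The cause was not tested. Calls that were higher made up 90% with T cell genes set equal, 62.9% with the GC and length offset, 70.7% with control units 2 and 3 alone and 12% with the covariate, against 1116 of 2144 in the reported fit.

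With a replicate block (units of the same number share a term), 1 receptor was lower and 0 were higher, 612 genes and 6 pathway genes passed, and Tnfrsf4 was at -0.64 (edgeR adjusted p = 0.0606). The numbers did not pair the units: deviations of same-numbered units correlated at 0.03, -0.12 and -0.05.

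The shallowest control units, 1 and 4, with 13017008 and 13627264 reads, limit the genes with few reads, such as Ltbr and Tnfsf18. Counting intervals cover counting error only.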
